A study of Homo sapiens with 4 samples.

Results

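The nuclear receptors are a family of ligand-regulated transcription factors, and 46 of their human genes were listed for Huh7 cells, chosen by the gene symbol that the array platform gives to each probe. Of the 46 genes, 40 were read by at least 1 probe, 68 probes in all, among 28264 probes on the array and 19090 genes with a symbol. NR0B1, NR1H2, NR1H4, NR1I2, HNF4A and NR2F2 were not analysed here. The study compared Huh7 cells, an established human hepatocellular carcinoma line, that stably carried an shRNA against ACOT12 (2 arrays, called shACOT12) with Huh7 cells that stably carried a scramble shRNA (2 arrays, called scramble). Both kinds of cells had been selected with puromycin for 1 week, and the labels name no treatment with a hormone or receptor ligand. ACOT12 encodes a cytosolic thioesterase that hydrolyses acetyl-CoA to acetate and free coenzyme A, and the study looked for genes that act downstream of it. The promoter that drives each hairpin and the number of clones are not given in the sources used here, and the labels do not say whether the replicates are separate cultures. A p-value here therefore covers the spread between these 4 arrays alone, part or all of which may be technical.

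Most nuclear receptors share a zinc-finger domain that contacts DNA and a second domain that holds a small lipophilic ligand such as a steroid, a fatty acid, a bile acid, an oxysterol, a retinoid or thyroid hormone. Many bind DNA as a pair with a retinoid X receptor at repeats of the half-site AGGTCA, steroid receptors bind as pairs of themselves, and the orphan receptors include several that act as single molecules. In liver the family sets bile acid and lipid metabolism, drug clearance, glucose output and the daily clock.

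In shACOT12 against scramble cells, 0 of the 40 measured receptors passed an adjusted p of 0.05 (limma, Benjamini-Hochberg over all genes), as against 0.00524% of all genes, that is 1 gene. At an unadjusted p under 0.05, limma gave 0 of the 40 receptors and 1.76% of all genes. The adjusted p was 1 for each of the 40, and the smallest unadjusted p was 0.115, for RORB. Among the receptors at or above the median intensity of all genes, the largest differences were those of PPARG and RARA. PPARG was lower in shACOT12 cells, with a log2 fold change of -0.59, and RARA higher, with 0.52. Of these receptors, PPARG, THRB, RXRA and NR4A3 were lower on both shACOT12 arrays than on either scramble array. Groups without overlap, in either direction, were found for 20% of the 40 receptors and 21.5% of all genes. Besides the probe used for the gene, THRB had probes that gave -0.68, 0.14 and 0.21. The log2 fold change is shACOT12 minus scramble throughout, on quantile-normalized log2 intensities.

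PPARG (chr3:12287118-12287367, plus strand): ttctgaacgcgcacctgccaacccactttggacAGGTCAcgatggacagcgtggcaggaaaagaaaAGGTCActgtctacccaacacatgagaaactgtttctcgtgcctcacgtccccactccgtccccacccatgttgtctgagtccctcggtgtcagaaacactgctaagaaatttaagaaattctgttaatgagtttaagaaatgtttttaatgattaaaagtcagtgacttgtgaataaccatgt
RARA (chr17:40308930-40309179, plus strand): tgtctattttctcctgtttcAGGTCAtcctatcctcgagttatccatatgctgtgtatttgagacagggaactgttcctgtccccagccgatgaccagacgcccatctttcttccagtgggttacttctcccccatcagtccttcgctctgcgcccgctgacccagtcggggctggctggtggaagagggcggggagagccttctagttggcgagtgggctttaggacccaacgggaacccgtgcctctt
THRB (chr3:24495709-24495958, minus strand): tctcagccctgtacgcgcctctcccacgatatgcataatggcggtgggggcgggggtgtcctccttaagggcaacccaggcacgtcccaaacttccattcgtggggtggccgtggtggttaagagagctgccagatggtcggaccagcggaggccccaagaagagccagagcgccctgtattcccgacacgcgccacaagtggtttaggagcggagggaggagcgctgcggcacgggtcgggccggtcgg
NR5A2 (chr1:200027460-200027709, plus strand): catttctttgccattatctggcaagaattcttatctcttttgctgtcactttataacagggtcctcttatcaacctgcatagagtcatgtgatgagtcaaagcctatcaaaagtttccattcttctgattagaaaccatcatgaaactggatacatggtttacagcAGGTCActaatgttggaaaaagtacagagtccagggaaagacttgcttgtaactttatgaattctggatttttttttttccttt
NR1H3 (chr11:47248050-47248299, plus strand): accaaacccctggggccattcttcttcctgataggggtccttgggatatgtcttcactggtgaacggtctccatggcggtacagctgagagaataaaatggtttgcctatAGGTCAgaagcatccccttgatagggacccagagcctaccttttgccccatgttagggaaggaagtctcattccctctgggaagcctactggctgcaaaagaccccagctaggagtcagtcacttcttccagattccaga

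These 5 sequences are the 250 bases before the annotated start of each gene, read 5′ to 3′ on the gene's own strand, from RefSeq (GRCh38.p14), with each AGGTCA, on either strand, in capitals. They are shown because the values described next turn on PPARG, RARA and THRB, and for the family's own half-site. Among receptors at or above the median intensity with a promoter entry, PPARG, RARA, NR5A2 and NR1H3 were those whose promoter held it. NR0B2, VDR, HNF4G, NR2F6 and NR4A2, also at or above the median, had no promoter entry. PPARG had 2 such half-sites, at -217 and -184 from the start. RARA had 1 at -230, NR1H3 had 1 at -140, NR5A2 had 1 at -84 and THRB had 0. Of 35 measured receptors with a promoter entry, 5 held AGGTCA on either strand (14.3%), against 12.1% of 27305 promoters of the same length. The longer AAGGTCA, which contains AGGTCA, was held by 1 receptor promoter, that of PPARG (2.9%), and by 3.5% of all promoters. AGAACA, a half-site of the receptors for 3-keto steroids such as glucocorticoids, was held by 3 receptor promoters (8.6%), those of ESR1, PPARD and RXRB, and by 12.4% of all. A match of these letters is a description of the sequence and says nothing of binding.

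Array medians were 327 and 451 on the shACOT12 arrays and 377 and 395 on the scramble arrays, in deposited intensity units. ACOT12 itself, the targeted gene, had intensities of 156 and 207 on the shACOT12 arrays and 302 and 178 on the scramble arrays. Its groups overlapped, with a log2 fold change of -0.40 with an SE of 0.35 (limma adjusted p = 1), and of 0.0039 without scramble replicate 1 and -0.80 without scramble replicate 2. A lower level of ACOT12 RNA was thus not detected, and shACOT12 names the hairpin the cells carried. All 10 hepatocyte and Huh7 markers, such as ALB and AFP, were at or above the median of all genes, while 1 of 6 fibroblast, 0 of 5 endothelial, 1 of 4 leukocyte and 1 of 3 biliary markers were. The hepatocyte markers summed to 1087570 and 1178090 intensity units on the shACOT12 arrays and to between 1022540 and 1328420 on the scramble arrays. Among them AFP, the fetal serum protein, was at -0.78 on the log2 scale (limma unadjusted p = 0.0267, adjusted p = 1) and ALB, albumin, at 0.49, both without overlap between the groups. In bulk RNA, fewer cells of a kind and less RNA per cell cannot be told apart.

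Of the 40 receptors, 24 lay at or above the median intensity of all genes (60%), 3 lay between the 30th percentile and the median, and 13 lay in the dimmest 30% (32.5%). The brightness of a probe also depends on its sequence, so receptors are not ranked by it. The 13 dim receptors were NR1D1, RORB, NR1I3, RXRG, NR2E1, NR2E3, ESR1, ESR2, ESRRG, NR3C2, PGR, NR4A1 and NR5A1. Their intensities ran from 4.51 to 190 on the shACOT12 arrays and from 34.8 to 157 on the scramble arrays, and no more than 36.1% of an array's probes were as dim or dimmer. No detection flags were used, so whether these 13 were above background was not tested. Among the dim genes are the receptors for estrogen, progesterone and mineralocorticoids, so of the 5 steroid receptors measured only NR3C1, the glucocorticoid receptor, was at or above the median.

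Among the lipid and xenobiotic sensors, PPARG, the fatty acid-activated receptor best known for adipocyte differentiation, had intensities of 5470 and 6581 on the shACOT12 arrays and 6650 and 12361 on the scramble arrays. Both shACOT12 arrays were below both scramble arrays, but scramble replicate 1 was close to shACOT12 replicate 2 and scramble replicate 2 stood well above the other arrays. The log2 means were 12.56 ± 0.17 in shACOT12 and 13.15 ± 0.63 in scramble cells (SD, n = 2 each). The difference was thus -0.59 on the log2 scale (SE 0.37, 95% confidence interval -1.47 to 0.29, adjusted p = 1 by limma). With any 1 array left out PPARG ranged from -1.04 to -0.14, the smallest size without scramble replicate 2. PPARA, which drives fatty acid oxidation in hepatocytes, had intensities of 12830.5 and 18222 on the shACOT12 arrays and 14101 and 24980 on the scramble arrays. As for PPARG, scramble replicate 2 was the brightest array, and here the groups overlapped. Its log2 fold change was -0.31 (SE 0.39), with -0.76 to 0.13 when 1 array was left out. PPARD, a broadly expressed receptor of the same subfamily, was dimmer and stood at -0.09 (SE 0.39).

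NR1H3 encodes LXR alpha, the oxysterol receptor that raises cholesterol efflux and lipogenic genes. Its intensities were 14730 and 17465 on the shACOT12 arrays and 12990 and 23310 on the scramble arrays, so the shACOT12 values lay between the scramble values. The log2 fold change was -0.13 (SE 0.37). VDR, the vitamin D receptor, had 1458 and 835 on the shACOT12 arrays and 1301 and 1221 on the scramble arrays, a log2 fold change of -0.21 (SE 0.40). In VDR the wider gap was within the shACOT12 group. NR1I3 encodes CAR, a sensor of foreign compounds that is abundant in adult liver. It was dim, with 62.1 and 126 on the shACOT12 arrays and 76.3 and 71.4 on the scramble arrays, and its second probe was dim too. After normalization its shACOT12 values were above both scramble values (log2 fold change 0.25, SE 0.28), whereas the deposited intensities overlapped and the second probe gave -0.10.

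Of the receptors that maintain hepatocyte genes, NR5A2 encodes LRH-1, a phospholipid-binding receptor of bile acid synthesis. It had intensities of 7769 and 8826 on the shACOT12 arrays and 8255 and 7855 on the scramble arrays. The 4 arrays lay close together and the groups overlapped, with a log2 fold change of 0.04 and a 95% confidence interval of -0.62 to 0.69, so a difference of either sign within these bounds could not be told from none. NR0B2 encodes SHP, which lacks the DNA-binding domain and represses other receptors such as LRH-1. It had 1847 and 2815 on the shACOT12 arrays and 1944 and 2727 on the scramble arrays. Its replicates numbered 1 were nearly equal, as were those numbered 2, and the log2 fold change was 0.02 (95% confidence interval -0.74 to 0.78). HNF4G, the close relative of HNF4A, had 2027 and 2342 on the shACOT12 arrays and 2217 and 3533 on the scramble arrays, a log2 fold change of -0.33 (SE 0.32). Again scramble replicate 2 was the highest array, and without it the HNF4G difference was -0.03.

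**Figure D1:**
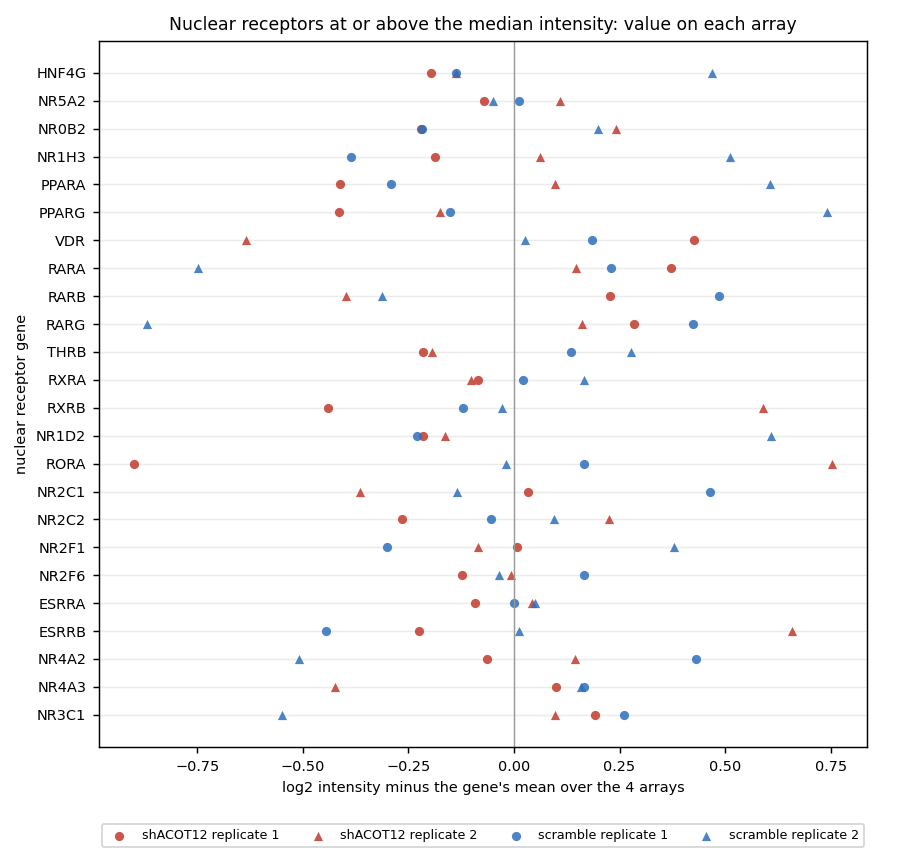
Log2 intensity of the 24 receptors at or above the median of all genes on each of the 4 arrays, as the distance (x axis) from the gene's own mean, with 1 gene per row. Red stands for shACOT12 and blue for scramble, circles for replicate 1 and triangles for replicate 2. The blue triangle of scramble replicate 2 is the outermost point in many rows. It lies to the right for PPARG, PPARA and NR1H3 and to the left for RARA, RARG and NR3C1. PPARG, THRB, RXRA and NR4A3 have both red points left of both blue ones.

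Among the hormone and vitamin A receptors, THRB, the main thyroid hormone receptor of liver, had intensities of 692 and 873 on the shACOT12 arrays and 966 and 1116 on the scramble arrays. Both shACOT12 arrays were below both scramble arrays. The log2 means were 9.60 ± 0.02 in shACOT12 and 10.01 ± 0.10 in scramble cells (SD, n = 2 each). THRB thus stood at -0.41 on the log2 scale, SE 0.27 and 95% confidence interval -1.06 to 0.24 (adjusted p = 1 by limma), and -0.48 to -0.34 when 1 array was left out. The THRB difference was larger than the gap between the 2 arrays of either group, which held for 3 of the 40 receptors (THRB, RXRA and the dim ESR2) and for 12.5% of all genes. THRA, the thyroid hormone receptor that predominates in heart and brain, stood at -0.14 (SE 0.34). 

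RARA, a retinoic acid receptor of most tissues, had 2232 and 2122 on the shACOT12 arrays and 2108 and 1115 on the scramble arrays. Scramble replicate 2 was low and the other 3 arrays were alike, so the log2 fold change of 0.52 (SE 0.38) became 0.03 without scramble replicate 2 and 1.01 without scramble replicate 1. RARG, the retinoic acid receptor best known from skin, had the same pattern, with 836 and 940 on the shACOT12 arrays and 1005 and 431 on the scramble arrays. Its log2 fold change of 0.45 (SE 0.45) became -0.20 without scramble replicate 2. RARB, itself a retinoic acid-inducible gene, stood at -0.17 (SE 0.39), with overlapping groups.

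Of the shared partners, RXRA, the main retinoid X receptor of liver, had intensities of 4748 and 4891 on the shACOT12 arrays and 5247 and 5897 on the scramble arrays. Both shACOT12 arrays were lower, by a small amount: the log2 fold change was -0.19 (SE 0.27, 95% confidence interval -0.84 to 0.46, adjusted p = 1 by limma) and -0.26 to -0.11 when 1 array was left out. RXRB stood at 0.15 (SE 0.39) with its highest and lowest values both on shACOT12 arrays, 1548 and 640. RXRG, a partner of muscle and brain, was dim.

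All 4 measured clock receptors, which bind the same DNA elements as repressors (NR1D1 and NR1D2) or activators (RORA and RORB), had a negative log2 fold change, but their groups overlapped except for the dim NR1D1. NR1D2, which encodes REV-ERB beta, had 3784 and 4123 on the shACOT12 arrays and 3836 and 6960 on the scramble arrays. Its log2 fold change of -0.38 (SE 0.35) became 0.04 without scramble replicate 2. The other NR1D2 probes gave -0.07 and 0.28, and the mean of all its probes gave -0.06. RORA had 356 and 1394 on the shACOT12 arrays and 855 and 787 on the scramble arrays. Its 2 shACOT12 arrays enclosed both scramble arrays, and the log2 fold change of -0.15 (SE 0.53) ranged from -0.97 to 0.68 when 1 array was left out. RORB, a receptor of retina and brain, had the largest log2 fold change of the family, -0.89 (SE 0.49), on intensities of 4.51 and 49.0 on the shACOT12 arrays and 37.2 and 34.8 on the scramble arrays. That value turned on 1 array near the bottom of the scale. NR1D1, which encodes REV-ERB alpha, was dim, with 32.7 and 55 on the shACOT12 arrays and 54.8 and 42.1 on the scramble arrays (log2 fold change -0.23, SE 0.28).

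The 6 measured NR2 orphan receptors all had small negative log2 fold changes with overlapping groups, from -0.33 for NR2C1 to -0.04 for NR2C2. This shared sign did not hold without shACOT12 replicate 1, when 2 of the 6 were higher, or without scramble replicate 2, again with 2 higher. Without shACOT12 replicate 2, 1 of the 6 was higher. The second probe of NR2E3 gave 0.19. NR2F1 encodes COUP-TFI, a developmental repressor, and had 7310 and 6920 on the shACOT12 arrays and 5949 and 9510 on the scramble arrays (log2 fold change -0.08, SE 0.33). Its shACOT12 arrays lay between the scramble arrays. NR2F6, another COUP relative, was read by a bright probe, with at least 98.6% of an array's probes at or below it, and stood at -0.13 (SE 0.28). NR2E1 and NR2E3, receptors of neural stem cells and of photoreceptors, were dim. 

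ESRRA encodes ERR alpha, an orphan receptor of mitochondrial and oxidative genes. It had intensities of 7438 and 8258 on the shACOT12 arrays and 7986 and 8217 on the scramble arrays. These 4 values were close together, with a log2 fold change of -0.05 and a 95% confidence interval of -0.70 to 0.60. ESRRB, a receptor of pluripotent cells, stood at 0.43 (SE 0.38) with overlapping groups, and ESRRG, dim, at 0.39 (SE 0.32) with both shACOT12 arrays above both scramble arrays, 83.5 and 90.0 against 67.5 and 60.5.

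NR3C1, the glucocorticoid receptor, had 3495 and 3465 on the shACOT12 arrays and 3764 and 2265 on the scramble arrays. Scramble replicate 2 was low and the groups overlapped, with a log2 fold change of 0.29 (SE 0.35) that became -0.11 without that array. The NR4A receptors are early response genes without a known classical ligand. NR4A1 was dim, with 50.8 and 122 on the shACOT12 arrays and 76.3 and 72.4 on the scramble arrays (log2 fold change 0.05, SE 0.31). NR4A2 stood at 0.08 (SE 0.38) with overlapping groups. NR4A3 had 640 and 575 on the shACOT12 arrays and 738 and 768 on the scramble arrays, so its groups did not overlap, at -0.32 on the log2 scale (SE 0.30, limma adjusted p = 1). That holds for its brightest probe only: the other NR4A3 probes gave -1.18 and -0.17, each with overlapping groups. NR5A1, the steroidogenic factor of adrenal and gonad, and NR6A1, a germ cell receptor, stood at 0.13 and -0.11.

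**Figure D2:**
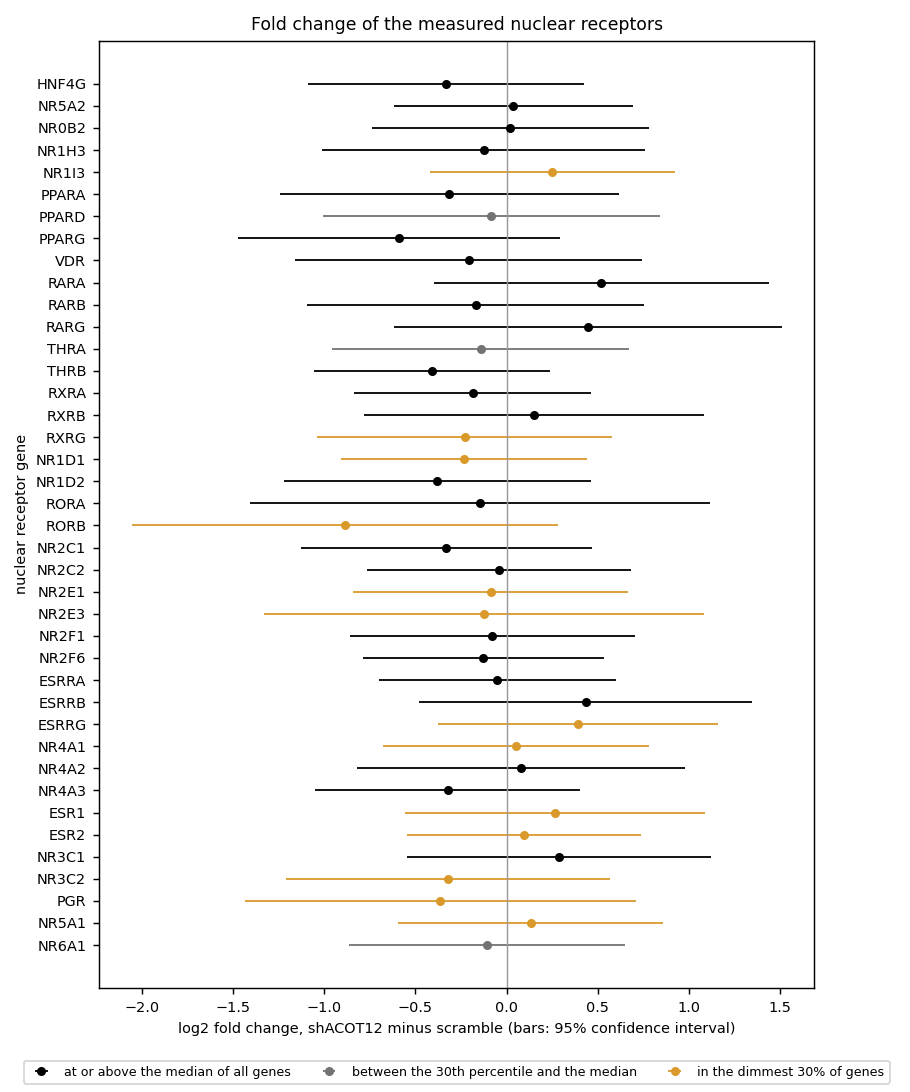
Log2 fold change, shACOT12 minus scramble, of the 40 measured receptors (points, x axis) with its 95% confidence interval from limma (bars), 1 gene per row grouped by role. Black marks genes at or above the median intensity, grey those between the 30th percentile and the median, and orange the dimmest 30%; all 40 intervals include 0.

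After normalization the groups did not overlap for 8 of the 40 receptors (20%), as for 21.5% of all genes. Of the 8, 3 were higher in shACOT12 cells, NR1I3, ESR2 and ESRRG, all dim (7.5%, against 11.5% of all genes), and 5 were lower, THRB, PPARG, NR1D1, RXRA and NR4A3 (12.5%, against 10% of all genes). These shares were close to the background. For NR1I3, ESR2 and NR1D1 the deposited intensities overlapped, so 5 of the 8 were apart on both scales. On deposited intensities RARA (higher) and the dim NR3C2 and PGR (lower) were apart instead, which again gave 8 receptors, 2 higher and 6 lower. The share of all genes apart on deposited intensities, or on both scales, was not counted, so these counts have no background beside them. The median log2 fold change of the 40 receptors was -0.12, against 0.0078 for all genes, and 26 of 40 were lower in shACOT12 cells (65%), against 48.6% of all genes. This balance rested on 1 array: without shACOT12 replicate 1 the median was 0.04 and 19 of 40 were lower. The half-width of the 95% confidence interval ran from 0.64 to 1.26 over the 40 receptors, with a median of 0.81 on the log2 scale. These limits are not adjusted for the number of genes, so the adjusted threshold asked for larger differences still.

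Scramble replicate 2 stood apart for many receptors. Of the 24 receptors at or above the median intensity, it was the array farthest from the median of the other 3 for 12 (50%), as for 41.8% of all genes at or above the median. It was the highest array for 8 of these 12, PPARG, PPARA, NR1H3, HNF4G, NR1D2, NR2F1, THRB and RXRA, and the lowest for 4, RARA, RARG, NR3C1 and NR4A2. The SD over these 24 genes of the log2 difference between 2 arrays was 0.56 within shACOT12 and 0.65 within scramble. Between arrays of different groups it was 0.29 for the replicates numbered 1, 0.58 for the replicates numbered 2, 0.63 for shACOT12 replicate 1 with scramble replicate 2 and 0.49 for shACOT12 replicate 2 with scramble replicate 1. Receptor levels thus differed as much between arrays of 1 group as between groups.

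**Figure D3:**
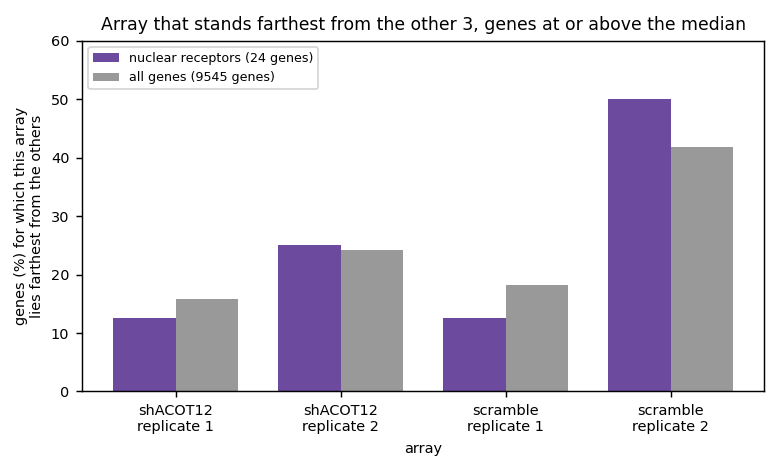
Share of genes (y axis, %) for which each array (x axis) lies farthest from the median of the other 3, for the 24 receptors (purple) and all 9545 genes (grey) at or above the median intensity. Scramble replicate 2 has the tallest bars, 50% of the receptors and 41.8% of all genes.

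Of the 40 receptors, 20 were read by several probes: 13 by 2 probes, 6 by 3 and THRB by 4. For 7 of the 20, every other probe gave a log2 fold change of the same sign as the brightest probe, and for 13 at least 1 probe had the opposite sign. THRB gave -0.41 from its brightest probe and -0.68, 0.14 and 0.21 from the others. The 2 THRB probes with negative values were thus apart from the other 2, and the transcript positions of the probes were not used here. The 3 probes of NR2C1 gave -0.33, -0.42 and -0.16 and those of PPARA gave -0.31, -0.53 and 0.13. RARG gave 0.45 and, from a dim probe, -0.80. When all probes of a gene were averaged, RARG stood at -0.18, RORA at -0.40 and THRB at -0.19. PPARG, RARA and RXRA had 1 probe each, so their values have no second reading.

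**Figure D4:**
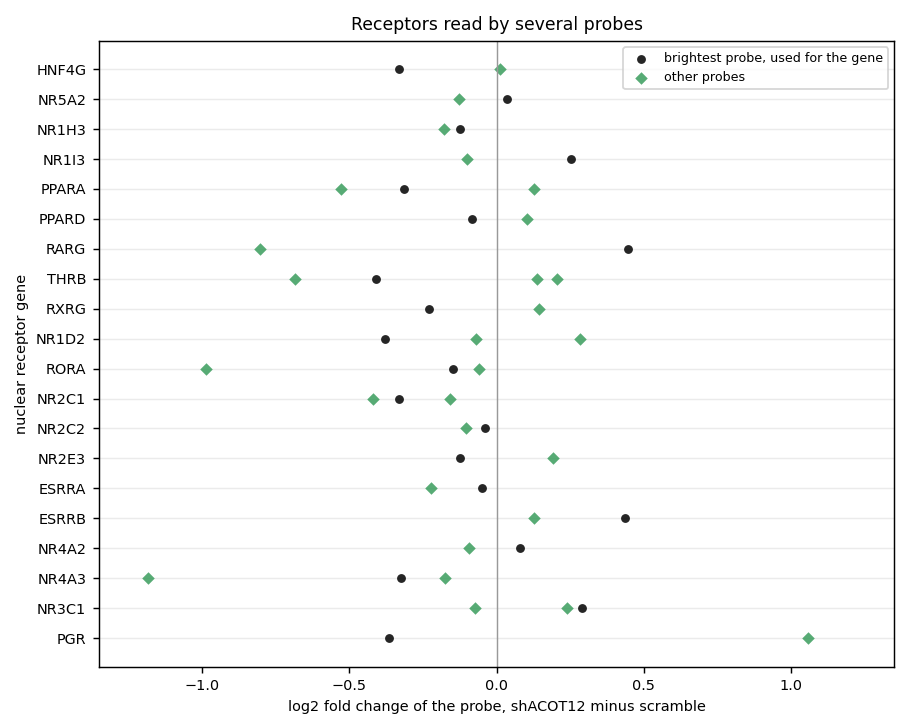
Log2 fold change, shACOT12 minus scramble (x axis), of each probe of the 20 receptors read by several probes, 1 gene per row. Black circles are the brightest probe, used for the gene, and green diamonds the others; for 13 of the 20 genes the symbols lie on both sides of 0.

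Coregulators carry out what the receptors direct, since coactivators acetylate or open chromatin and corepressors recruit histone deacetylases. Of 19 measured coactivators and mediator genes, 10 were higher and 9 lower in shACOT12 cells, and their median difference was 0.0002 on the log2 scale. The 2 with the largest differences were SMARCA4, a chromatin remodelling ATPase, at -0.35 (SE 0.28), and NCOA6 at -0.35 (SE 0.32). Of 10 measured corepressor genes, 9 were higher, with a median of 0.07. SIN3A, a scaffold for histone deacetylases, stood at 0.42 (SE 0.30; 0.04 when its probes were averaged) and C1D at 0.22 (SE 0.27). Of 15 receptor chaperones 10 were higher, with a median of 0.14, led by HSPA1A, an inducible heat shock protein, at 0.42 (SE 0.44) and FKBP8 at 0.37 (SE 0.28). The counts rested on scramble replicate 2: without it 4 of the 15 chaperones were higher, with a median of -0.17, HSPA1A at -0.19 and FKBP8 still at 0.35, and 5 of the 10 corepressors were higher, with a median of 0.0064. Without shACOT12 replicate 1, 5 of the 19 coactivators were higher, with a median of -0.15. Of 22 genes for ligand synthesis and carriage 13 were higher (11 without scramble replicate 2), with CYP27B1, which makes active vitamin D, at 0.43 (SE 0.32) and ALDH1A1, a retinaldehyde dehydrogenase, at -0.34 (SE 0.27). None of the genes in these 4 lists passed limma's adjusted threshold or an unadjusted p under 0.05.

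Textbook target genes were counted receptor by receptor, and several are shared between lists, some of which also hold a receptor such as NR1H3 or NR0B2. Of 13 measured LXR targets, 8 were lower and 5 higher, with a median of -0.13. ABCG5 and ABCG8, the partner subunits of a sterol exporter that neighbour each other in the genome and are also targets of LRH-1, were the lowest. ABCG5 had intensities of 421 and 546 on the shACOT12 arrays and 1194 and 1010 on the scramble arrays, a difference of -1.18 on the log2 scale (SE 0.28, limma unadjusted p = 0.00457, adjusted p = 1). ABCG8 had 165 and 147 on the shACOT12 arrays and 482 and 246 on the scramble arrays, a log2 fold change of -1.18 (SE 0.45, unadjusted p = 0.0352, adjusted p = 1). In both genes each shACOT12 array was below each scramble array, and leaving out 1 array gave -1.33 to -1.03 for ABCG5 and -1.70 to -0.66 for ABCG8. Of the 11 measured genes of the LRH-1 and SHP axis, which includes this pair, 7 were lower, with a median of -0.09.

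Of 16 measured PPAR targets, 12 were lower and 4 higher, with a median of -0.18 and 0 at an unadjusted p under 0.05. Without scramble replicate 2, 10 were lower and the median was -0.05, and without scramble replicate 1, 13 were lower and the median was -0.38. CPT1A, which admits fatty acids to mitochondria, stood at -0.62 (SE 0.31) and PLIN2, a lipid droplet coat protein, at -0.42 (SE 0.31), both with scramble replicate 2 as the highest array, as for PPARA and PPARG. Without that array CPT1A stood at -0.35 and PLIN2 at -0.14. Of 14 FXR targets, 10 were lower, with a median of -0.10, among them SLC51B, a bile acid exporter subunit, at -0.40 (SE 0.30), while SLCO1B3, a hepatocyte uptake carrier, stood at 0.26 (SE 0.36) and at -0.18 without scramble replicate 1. Of 18 HNF4A targets, 12 were lower, with a median of -0.07. OTC, a urea cycle enzyme, stood at -0.79 (SE 0.33, unadjusted p = 0.0495) and the dimmer PCK1, an enzyme of gluconeogenesis, at -1.25 (SE 0.47, unadjusted p = 0.0352), both with an adjusted p of 1. Scramble replicate 2 was the highest array for PCK1, which stood at -0.60 without it and at -1.90 without scramble replicate 1, while OTC ranged from -1.07 to -0.50 without 1 array. Of 13 PXR and CAR targets, 8 were lower, with a median of -0.04, which was above 0 without shACOT12 replicate 1 or scramble replicate 2 (0.02 and 0.0028). CYP2B6, a drug-metabolizing enzyme, had 9674 and 12991 on the shACOT12 arrays and 15569 and 30260 on the scramble arrays, a difference of -0.97 on the log2 scale (SE 0.41, limma unadjusted p = 0.0496, adjusted p = 1). Scramble replicate 2 was again the highest, and without it CYP2B6 stood at -0.46.

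Of 16 measured glucocorticoid receptor targets, 11 were lower and 5 higher, with a median of -0.25. RASD1, a dexamethasone-inducible Ras-related gene and the 1 gene of all 19090 past the adjusted threshold, belonged to this list, with 0 and 12 intensity units on the shACOT12 arrays and 3122 and 3551 on the scramble arrays (adjusted p = 0.000691 by limma). Its log2 fold change was -9.65, between -10.05 and -9.26 without 1 array and between -9.94 and -9.88 under the other scalings, and -5.46 with the floor at the 20th percentile. Although the difference was large in each of these settings, and smallest with that floor, RASD1 did not pass in several. These were values as deposited, 75th percentile scaling, cyclic loess, that floor, and the fits without shACOT12 replicate 1 or either scramble array. By its mean over all arrays RASD1 lay in the dimmest 30% of genes, so the filter on dim genes left it out. PCK1, named above among the HNF4A targets, is on this list too and was lower, at -1.25 (limma unadjusted p = 0.0352). TSC22D3, which encodes the glucocorticoid-induced leucine zipper, had the opposite sign. TSC22D3 had intensities of 4979 and 5620 on the shACOT12 arrays and 3112 and 3630 on the scramble arrays. Its log2 fold change was 0.69 (SE 0.28, unadjusted p = 0.0421, adjusted p = 1), and 0.61 to 0.78 when 1 array was left out. Of 11 thyroid hormone receptor targets, 9 were lower, with a median of -0.19, and CPT1A and THRB itself differed most among those at or above the median. Of 10 retinoic acid receptor targets, 7 were lower, with a median of -0.17. The highest was RARA itself, at 0.52 and at 0.03 without scramble replicate 2. CYP26B1, which degrades retinoic acid, stood at -0.40 (SE 0.32) and at -0.10 without scramble replicate 2. Without shACOT12 replicate 2, 5 of these 10 were lower, with a median of -0.0002. Of 15 clock genes, 8 were higher and 7 lower, with a median of 0.0069. BHLHE40 stood at -0.66 (SE 0.69), but at 0.47 without scramble replicate 2, its highest array, and CRY1, a repressor of the clock, stood at -0.52 (SE 0.29). Without scramble replicate 2, 11 of the 15 clock genes were higher, with a median of 0.14. Apart from RASD1, no gene of these lists passed the adjusted threshold.

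**Figure D5:**
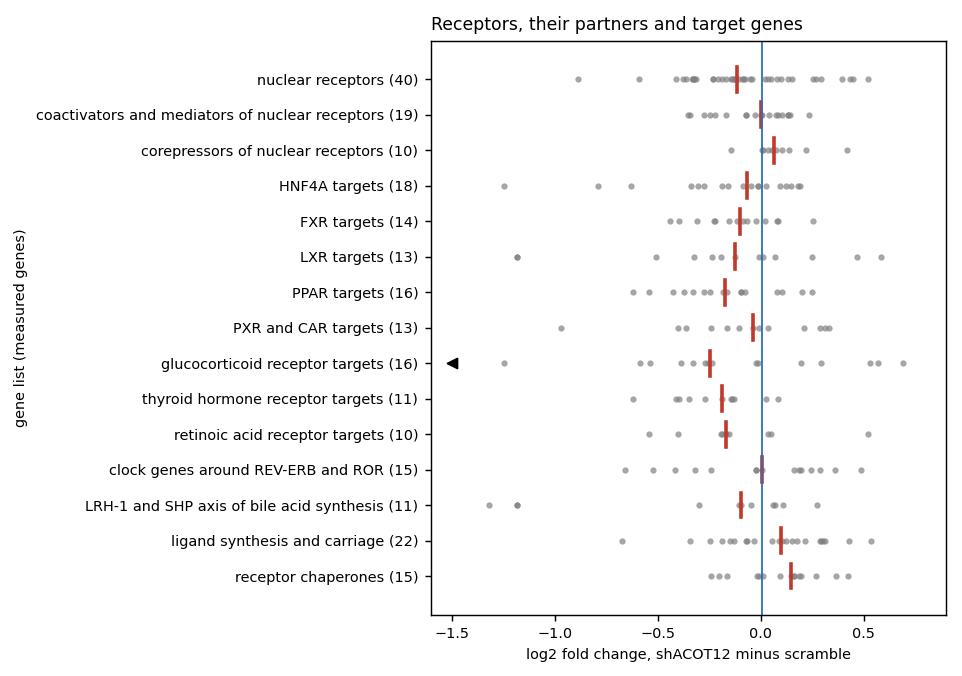
Log2 fold change, shACOT12 minus scramble (x axis), of each measured gene (grey points) in the receptor family and in the lists of coregulators, ligand and chaperone genes and targets (rows, with the number of genes). Red bars are list medians, the blue line is the median of all genes, and the black arrow marks RASD1, beyond the axis at -9.65; the list medians lie between -0.25 and 0.14.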

How the data were processed

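RNA of Huh7 cells was amplified and coupled to Cy5 as the only dye (per the labels' protocols). The authors deposited 1 column of intensities per sample, on a linear scale with some values below 0; scanner, background correction and normalization are not given in the sources used here. Intensities under 1 were set to 1 and taken to log2. Because log2 medians of different arrays lay up to 0.46 apart, arrays were quantile normalized, which would hide a shift of most genes. Probes were named by the platform's annotation, and the symbol of each of the 25893 probes with one was found in RefSeq through its gene number (GRCh38.p14). Each gene was read by its probe with the highest mean. The comparison used lmFit and eBayes of limma 3.58.1 (R 4.3.3) without a block, with Benjamini-Hochberg adjustment over 19090 genes. The fit was tested on simulated data. There it called 0.651% of genes with an absolute log2 change of 1, 31% of those with 2 and 87.3% of those with 3, so it missed most smaller changes. Promoter letters were counted in Python 3.11.15.

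Members, lists and named genes were chosen with earlier results of these data known. Values on every array are given for receptors with a known role in liver, for receptors at an unadjusted p under 0.05 and for those at least 0.5 apart without overlap and at or above the median, with others shown where 1 array or probe decided a value. For each list the genes at an unadjusted p under 0.05 are named or, with none, the 2 largest differences at or above the median; BHLHE40 and CRY1, CPT1A and PLIN2 are such pairs. With 2 arrays a group, an exact permutation test cannot give a two-sided p below 0.333, and the number of arrays limits the precision. The alternatives were other scalings, an intensity trend, a higher floor, a filter on dim genes, the mean of a gene's probes, 1 row per probe, the replicate number as a block and leaving out each array.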

Additional observations from a re-analysis of the deposited data

How the results depend on the processing

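The number of nuclear receptors past limma's adjusted threshold was 0 in the fit as reported and under all 13 alternatives, and the lowest adjusted p of any receptor in the fits by gene was 0.928, without shACOT12 replicate 1. The alternatives on all 4 arrays gave 0 or 1 receptor at an unadjusted p under 0.05 by limma. These were THRB with a floor at the 20th percentile, where 3.52% of all genes fell under 0.05, and RORB with the replicate block, where 3.69% did. With 1 row per probe, 1 THRB probe also fell under 0.05, at -0.68 on the log2 scale (limma unadjusted p = 0.0463). The share of all probes that did so was not counted. The median log2 fold change of the receptors was -0.08 on deposited values, -0.05 under 75th percentile scaling and -0.11 under cyclic loess. It was -0.11 to 0.043 without 1 array, above 0 only without shACOT12 replicate 1. The number of all genes past the threshold, 1 as reported, was 0 with values as deposited, 75th percentile scaling, cyclic loess or the higher floor, 3 with an intensity trend, 25 with the replicate block and 0 to 4 without 1 array; the causes were not tested. Deviations from the group means of same-numbered arrays correlated with r = 0.18 across genes. No label says what a number shares, so whether same-numbered arrays share more than the number is not known. With 2 arrays a group, leaving 1 out leaves a lone array that is assumed to vary like the other group.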
